A study of Rattus norvegicus with 24 samples.

Results

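The enzymes at the gate between glycolysis and the citric acid cycle were followed in the left ventricle of Dahl salt-sensitive rats. The 5 genes were the pyruvate dehydrogenase kinases Pdk1, Pdk2 and Pdk4, the pyruvate dehydrogenase subunit gene Pdha1 and the citrate synthase gene Cs. They were chosen by name, not by a measured value, and every probe set that the array annotation assigns to them was used. That gave 7 of the array's 8799 probe sets, 1 each for Pdk1, Pdk4 and Cs and 2 each for Pdk2 and Pdha1, and all 7 were bright enough to be tested.

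The pyruvate dehydrogenase complex turns pyruvate into acetyl-CoA inside the mitochondrion, and citrate synthase joins that acetyl-CoA to oxaloacetate in the first step of the citric acid cycle. Pyruvate dehydrogenase kinases phosphorylate the E1 alpha subunit, which Pdha1 encodes, and so switch the complex off, while the phosphatases Pdp1 and Pdp2 remove the phosphate. Pdk2 and Pdk4 are the main kinases of heart muscle, and Pdk4 is the one best known to rise with fasting, diabetes and fatty acid supply, in part through PPAR nuclear receptors. In the heart a rise of Pdk4 is associated with a shift from glucose to fatty acid oxidation.

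The series holds 24 columns of array intensities in 8 groups of 3, made from total RNA of the left ventricle. All rats, controls included, were of the Dahl salt-sensitive strain, which becomes hypertensive on a salty diet; they were 5 weeks old on arrival, and regimens began at 6 weeks of age. The high salt groups (3, 6 and 15 weeks) ate chow with 6% NaCl, the model of pathologic hypertrophy. The exercise groups (3 and 6 weeks), the model of physiologic hypertrophy, ran daily on a treadmill for a programme of 6 weeks, 3 of them of increasing effort and then 90 minutes a day at 16 m/min on a 5 degree incline. Controls (3, 6 and 15 weeks) were sedentary, matched for age and fed normal chow. The week numbers are those of the sample titles, which do not say from when they count. Neither the sex of the rats nor whether an array held RNA of 1 animal or of several is given, so p-values measure the spread between arrays.

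Of the 24 columns, 4 held only 2 arrays, each of them present once as a control and once as an exercised heart of 3 weeks, so 22 arrays were distinct. These 2 arrays were left out of comparisons of title groups. Together with control replicate 1 and exercise replicate 1 of 3 weeks they formed a group of 4 non-salt arrays of 3 weeks, the only use made of them. The arrays also differed in RNA integrity, read from the GAPDH control probe sets at the 3' and 5' ends of that messenger, whose ratio lies near 1 when full-length RNA is labelled. In the 6-week controls it was 1.58, 2.48 and 3.99, in those of 15 weeks 1.09, 1.52 and 1.58, and it lay between 0.989 and 1.18 on the other 16 distinct arrays. All 5 arrays above 1.4 were thus controls. Of 10 ventricular myocyte markers 9 were on the array, and their summed intensity was 177255 to 305252 over the arrays.

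The promoters of Pdk4, whose highest and lowest levels had the widest ratio, and Pdk2, whose bright probe set varied little, are printed as the 250 bases before the start given by RefSeq on build GRCr8. Pdk4 lies at chr4:34558327-34568329 and Pdk2 at chr10:80469388-80483988, both on the minus strand. The Pdk2 window overlaps these gene coordinates, which end at 80483988, so the start used for it lies inside them. Distances below count back from the last printed base of each window. Capitals mark matches on either strand to 3 motifs. The GC box was searched as GGGCGG. The second motif, the CCAAT box, reads backwards as ATTGG where it lies on the opposite strand. The E-box, which reads the same on both strands, was searched as CACGTG.
Pdk4 (chr4:34568330-34568579, minus strand): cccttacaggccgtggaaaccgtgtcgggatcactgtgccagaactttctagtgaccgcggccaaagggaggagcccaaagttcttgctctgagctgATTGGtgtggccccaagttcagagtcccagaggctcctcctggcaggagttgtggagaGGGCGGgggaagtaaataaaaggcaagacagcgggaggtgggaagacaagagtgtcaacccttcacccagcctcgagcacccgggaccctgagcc
Pdk2 (chr10:80483913-80484162, minus strand): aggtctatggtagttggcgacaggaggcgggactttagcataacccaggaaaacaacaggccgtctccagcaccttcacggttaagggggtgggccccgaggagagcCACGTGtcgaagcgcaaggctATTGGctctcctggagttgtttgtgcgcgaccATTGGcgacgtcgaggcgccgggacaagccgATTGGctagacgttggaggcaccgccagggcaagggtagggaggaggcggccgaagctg
The Pdk4 window held 1 GC box, 95 to 90 bases before the start, and 1 CCAAT box on the other strand, 153 to 149 bases before it. The Pdk2 window held 3 CCAAT boxes on the other strand and 1 E-box, 143 to 138 bases before the start. No 2 of these matches overlapped. Among 33469 RefSeq promoter windows of the same length 30.5% held a GC box, 34.02% a CCAAT box and 5.59% an E-box. A window with a GC box or a CCAAT box is thus common, and 1 with an E-box less so. The letters of a core nuclear receptor site (AGGTCA, in 14.1% of windows), a FOXO site (GTAAACA, 3.21%) and a TATA box (TATAAA, 12.9%) occurred in none of the 5 members' windows. These matches describe the windows only. The other members lie at chr3:77113464-77144145 (Pdk1), chrX:38509158-38522986 (Pdha1) and chr7:1348389-1374624 (Cs).

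Pdk4 had the widest ratio of highest to lowest value among the 7 probe sets, reaching from 24.7 to 2309.8 intensity units over the 22 distinct arrays; brighter probe sets covered more units. In the high salt hearts of 15 weeks it read 1573, 1289 and 2309.8 (mean 1724 ± 527, SD, n = 3), and in the exercised hearts of 6 weeks 1281, 1714 and 1622 (1539 ± 228, n = 3). The high salt hearts of 6 weeks were more scattered, at 564, 1259.6 and 2173 (1332 ± 807, n = 3). These 3 groups overlapped one another and held the highest means.
Hearts of 3 weeks stood in between. The high salt arrays of 3 weeks read 503, 547 and 478, a mean of 509 ± 34.9 (SD, n = 3). Control replicate 1 read 275, exercise replicate 1 read 356 and the doubly deposited arrays 1414 and 443, so that 1 of the 4 non-salt arrays stood with the exercised and late high salt hearts. The controls of 15 weeks read 426, 56.9 and 29.6 (171 ± 221, n = 3), and those of 6 weeks 116, 26.2 and 24.7 (55.7 ± 52.4, n = 3). Of these, 29.6, 26.2 and 24.7 lay under 36.3, the 25th percentile of all deposited values, and so were near the floor. Ordered by mean, the groups ran from the 6-week controls through the 15-week controls, high salt at 3 weeks, non-salt at 3 weeks, high salt at 6 weeks and exercise at 6 weeks to high salt at 15 weeks. Of the neighbours in that order only the 15-week controls and the high salt hearts of 3 weeks did not overlap.

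Pdk4 was lowest on the 5 arrays with a GAPDH ratio above 1.4, all of them controls. On the 17 distinct arrays with a ratio of at most 1.4 it read 275 to 2309.8, with a median of 1259.6, and on the 5 above that ratio it read 24.7 to 116. Within the 15-week controls the array with a ratio of 1.09 read 426, inside the range of the 4 non-salt arrays of 3 weeks (275 to 1414), and the arrays with 1.52 and 1.58 read 56.9 and 29.6. Among those 17 arrays the highest was still 8.39 times the lowest. The part of RNA integrity in the low control values was not tested beyond the fits given with each comparison.

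**Figure D1:**
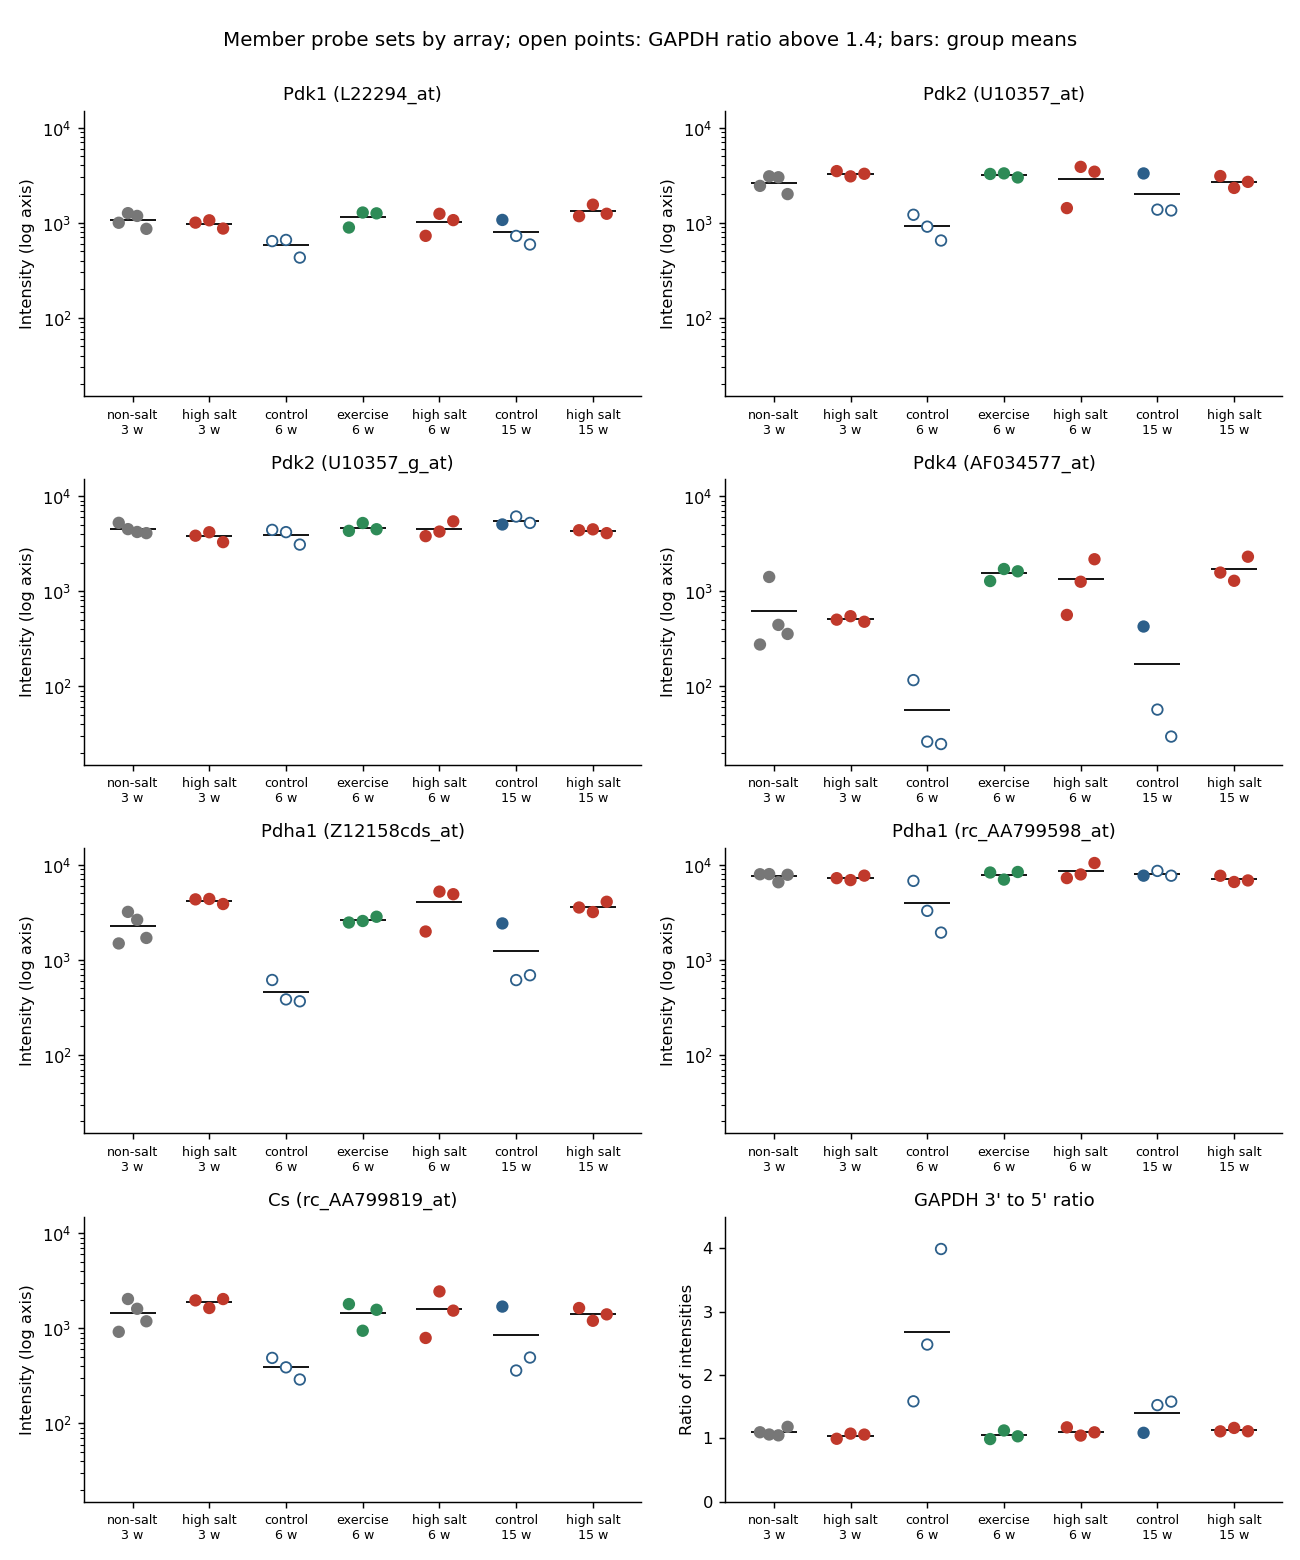
Deposited intensity (log axis) of the 7 probe sets on each of the 22 distinct arrays by group, and the GAPDH 3' to 5' ratio (linear axis, last panel). Open points are arrays with a ratio above 1.4 and bars are group means. Pdk4 sits lowest, at 24.7 to 116, on the 5 open arrays, and the bright probe sets of Pdk2 and Pdha1 are the flattest outside the 6-week controls.

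Pdk1, the kinase able to phosphorylate all sites of the E1 subunit, varied far less. It read 1171, 1548.5 and 1242 in the high salt hearts of 15 weeks (1321 ± 200.4, SD, n = 3) and 1069.9, 726 and 590.0 in their controls (795 ± 247, n = 3), without overlap. The exercised hearts of 6 weeks stood at 890.0, 1279.9 and 1255, the high salt hearts of 6 weeks at 728, 1241 and 1065, and their controls at 640.4, 659 and 429.7. Both treated groups of 6 weeks lay above every control of that age. At 3 weeks the high salt arrays read 1002, 1060.3 and 868 and the 4 non-salt arrays 862 to 1261, which overlap. By mean the order was control 6 weeks, control 15 weeks, high salt 3 weeks, high salt 6 weeks, non-salt 3 weeks, exercise 6 weeks and high salt 15 weeks, and each group overlapped its neighbours. Its lowest value on an array with a GAPDH ratio of at most 1.4 was 728, and its highest above that ratio 726.

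Pdk2, the kinase most widely expressed across tissues, was read by 2 probe sets whose names carry the same GenBank entry, and they gave different pictures. The brighter, U10357_g_at, read 5045, 6115 and 5239 in the 15-week controls (5466 ± 570.2, SD, n = 3) and 4388, 4483 and 4088 in the high salt hearts (4319.6 ± 206, n = 3), the controls being the higher. Over the 22 arrays it ranged only from 3098 to 6115, and its values above and below the ratio of 1.4 overlapped.
The dimmer, U10357_at, read 3299.6, 1373 and 1346 in the same controls and 3097, 2323 and 2690.2 in the high salt hearts. It reached 2994 to 3304 in the exercised hearts of 6 weeks, 1425 to 3869 in the high salt hearts of that age and only 649.8 to 1212 in their controls. Every array with a ratio above 1.4 lay at or under 1373 and every other array at or above 1425. Over the 19 arrays outside the 6-week controls the 2 probe sets correlated at -0.28 (Pearson r; Spearman rho -0.11), a description over arrays that share groups and scaling. A statement on Pdk2 messenger therefore depends on the probe set.

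Pdha1, the substrate of the kinases, also had 2 probe sets that differed. The brighter, rc_AA799598_at, read 7680.2, 8617 and 7675 in the 15-week controls and 7662, 6591 and 6843 in the high salt hearts. Outside the 6-week controls it stayed between 6546 and 10434 on 19 arrays. The 6-week controls read 6771, 3277 and 1934, lower the higher their GAPDH ratio (1.58, 2.48 and 3.99).
The dimmer, Z12158cds_at, read 2415, 612 and 688 in the 15-week controls and 3551, 3179 and 4080.0 in the high salt hearts. In the high salt hearts of 3 weeks it stood at 4325, 4368 and 3863, above all 4 non-salt arrays of that age, which read 1487, 1699, 3194 and 2636. Exercised hearts of 6 weeks read 2468, 2561 and 2839 and high salt hearts 1985, 5218 and 4902, against 614, 383 and 366 in their controls. Its correlation with the brighter probe set was -0.10 (rho -0.16) over the same 19 arrays. Pdha2, the testis type of the E1 alpha subunit and no member, read 1.9 to 12.4 on all 22 distinct arrays and so was at the floor of the array.

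Cs, a common marker of mitochondrial content, read 1695, 360.2 and 493 in the 15-week controls and 1637, 1202 and 1404 in the high salt hearts. The control with a ratio of 1.09 was thus the highest of the 6. Exercised hearts of 6 weeks read 1801, 944 and 1569, high salt hearts 793, 2446 and 1537, and their controls 489, 389 and 289.7. At 3 weeks the high salt arrays read 1969.6, 1638 and 2035 and the non-salt arrays 919.8 to 2037. On the 17 arrays with a ratio of at most 1.4 it read 793 to 2446, and on the 5 others 289.7 to 493. It ran with the dimmer probe sets of Pdha1 (r 0.89, rho 0.69) and Pdk2 (r 0.89, rho 0.75) over 19 arrays, and with Pdk4 less by rank than by value (r 0.67, rho 0.25).

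**Figure D2:**
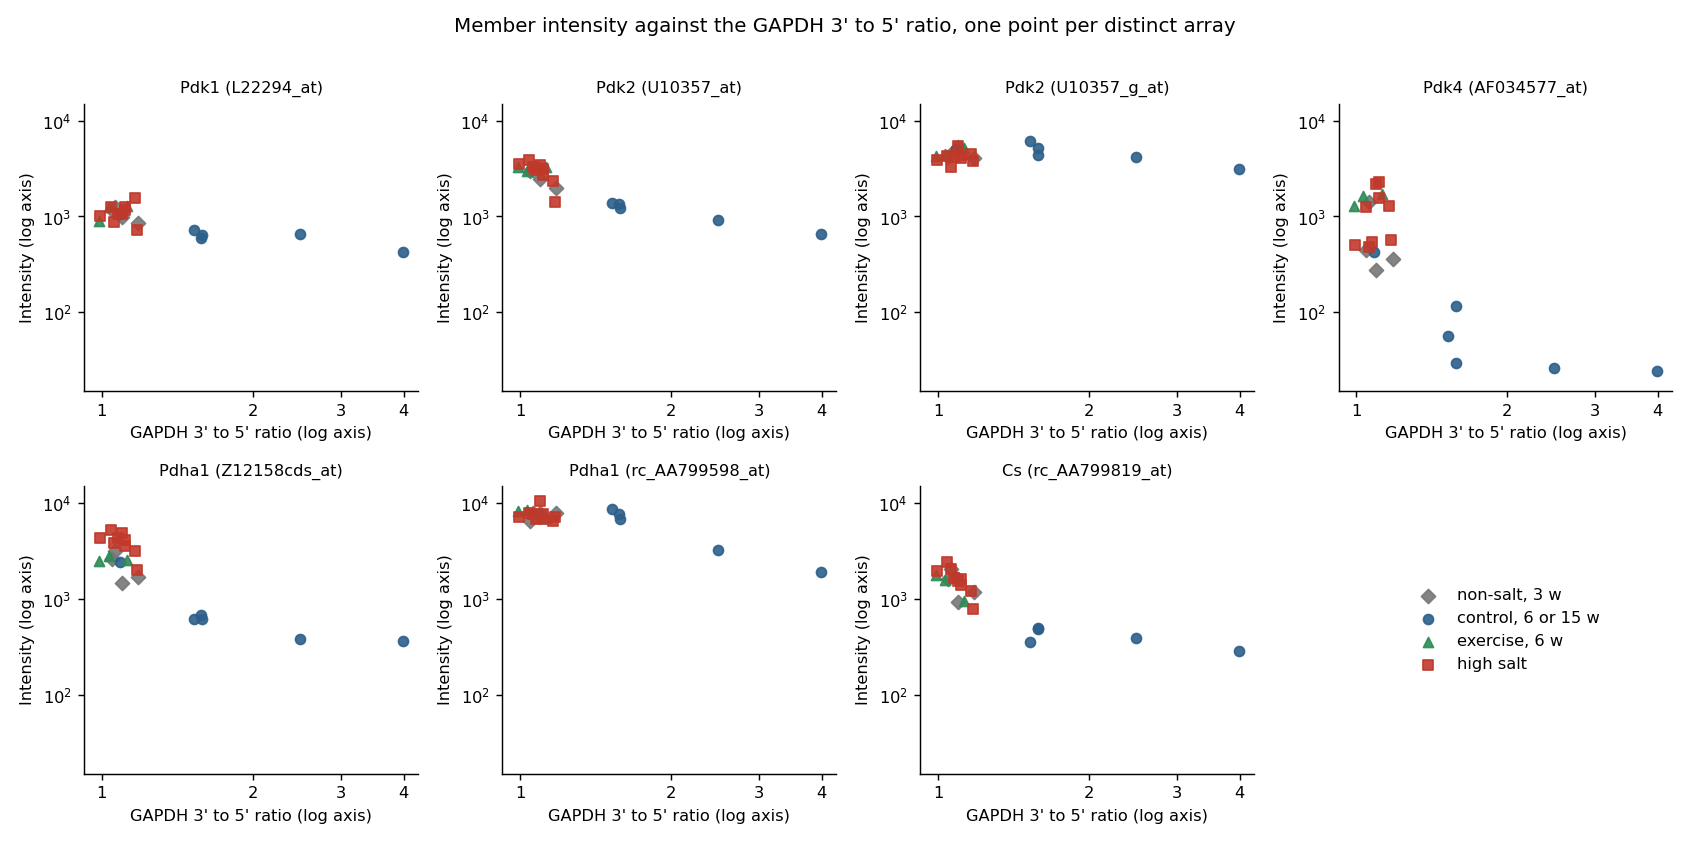
Intensity of each probe set (log axis) against the GAPDH 3' to 5' ratio of its array (log axis), 1 point per distinct array, marked by treatment. For Pdk4, Pdk1, Cs, Z12158cds_at and U10357_at the 5 arrays above 1.4, all of them controls, lie below all 17 others. For Pdk1 the gap is only from 726.3 to 727.7. U10357_g_at and rc_AA799598_at overlap. The share of all tested probe sets that separate in this way was not counted, so this is no trait of these genes.

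Changes are given as differences of mean log2(intensity + 40), fitted over all groups and tested over 6555 probe sets, with called meaning an adjusted p under 0.05. The added 40 makes the fold change of a dim signal smaller than its ratio of intensities. Pdk4 in exercise against control at 6 weeks was at 4.16 with it and at 5.14 with an added 1. Comparisons that use the same controls are not independent of each other.

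High salt against control at 15 weeks, the late stage of the pathologic model, showed higher Pdk4 and higher Z12158cds_at of Pdha1. These were 2 of the 7 probe sets, where 7.17% of all tested probe sets were called and 3.28% were called higher. Pdk4 rose by 3.55 ± 0.53 log2 units (SE, 3 against 3 arrays, no overlap; adjusted p = 0.00033). Z12158cds_at rose by 1.78 ± 0.38 (no overlap; adjusted p = 0.0064), while the brighter Pdha1 probe set was at -0.18 ± 0.28 (adjusted p = 0.81). Pdk1 was at 0.73 ± 0.24, without overlap but short of the threshold (adjusted p = 0.071). Cs was at 1.01 ± 0.42 (adjusted p = 0.17), U10357_at of Pdk2 at 0.54 ± 0.33 (adjusted p = 0.40) and U10357_g_at at -0.33 ± 0.18 (adjusted p = 0.31). The median over the 7 was 0.73 and over all tested probe sets -0.043.
With the 2 controls of a GAPDH ratio above 1.4 left out, a choice made after the values were seen, neither call held. Pdk4 was then at 1.88 ± 0.54 (adjusted p = 0.13), Z12158cds_at of Pdha1 at 0.56 ± 0.40 (adjusted p = 0.69) and Cs at -0.27 ± 0.45 (adjusted p = 0.92). That leaves 1 control array. Without control replicate 1, the intact one, 4 of the 7 member probe sets were called, and without control replicate 2 only 1. Of all 6555 tested probe sets 546 and 218 were called in those fits, against 470 as reported. A fit that took the ratio into account as a covariate kept the call of Pdk4, at 3.08 ± 0.45 (adjusted p = 0.00031). That fit has 1 slope on the ratio for all groups. Pdk4 read 426, 56.9 and 29.6 in the 15-week controls at ratios of 1.09, 1.52 and 1.58. In the 6-week controls it read 116, 26.2 and 24.7 at 1.58, 2.48 and 3.99. Whether 1 slope serves both control groups was not tested, so the kept call does not settle the part of RNA integrity.

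Summed markers of other cells also differed between these groups. The summed intensity of 7 fibroblast markers was 11662 to 22399.8 in the high salt hearts and 26444 to 35706 in the controls. That of 3 red blood cell markers was 31916 to 39002 against 18166 to 24499, of 3 atrial markers, among them Nppa, 21467 to 25849 against 3622 to 5999, and of 5 leukocyte markers 1677 to 2313 against 3305 to 4101. The other atrial markers, Myl7 and Myl4, read at most 473.8 and 189.2 on any array, so Nppa made up most of that sum. Cd74, at 1332 to 4963 over the arrays, made up most of the leukocyte sum, and 3 of its 5 markers passed the low-value filter. The 4 smooth muscle markers summed to 2325 to 2894 against 3787 to 5093, also without overlap. The ventricular myocyte sum overlapped, at 210096 to 297871 against 234700 to 288409, as did the sums of endothelial, skeletal muscle and adipocyte markers. No marker on the array was at 0. The part of these markers in the changes was not tested. In tissue RNA, fewer cells of a type and less RNA per cell cannot be told apart.

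Exercised hearts of 6 weeks were set against the 15-week controls because the 6-week controls had the poorest RNA, and age differs between these groups. Pdk4 was the only 1 of the 7 probe sets called, where 0.0458% of all tested probe sets were, 0.0153% higher. It was higher by 3.42 ± 0.53 (3 against 3 arrays, no overlap; adjusted p = 0.0061). Pdha1 Z12158cds_at was at 1.34 ± 0.38 (adjusted p = 0.26), Cs at 0.99 ± 0.42 (adjusted p = 0.46), U10357_at of Pdk2 at 0.79 ± 0.33 (adjusted p = 0.46) and Pdk1 at 0.52 ± 0.24 (adjusted p = 0.52). In the high salt hearts of 6 weeks set against the same controls 2 of 7 were called, where 0.259% of all were, 0.168% higher: Pdk4 at 3.04 ± 0.53 (adjusted p = 0.015) and Z12158cds_at at 1.83 ± 0.38 (adjusted p = 0.046).
With only the 15-week control of ratio 1.09 in use, Pdk4 was at 1.75 ± 0.54 in exercise and 1.37 ± 0.54 in high salt, with adjusted p-values of 0.9997 and 0.92. The Pdk4 calls were also lost without control replicate 2 or 3 of 15 weeks, as they were without exercise replicate 3 (Pdk4 at 3.38) or without high salt replicate 2 or 3 (2.98 and 2.60). Without control replicate 1 of 15 weeks, 3 of the 7 member probe sets were called in each comparison. Of all 6555 tested probe sets 56 and 102 were then called, against 3 and 17 as reported.

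Against their own controls, both treated groups of 6 weeks showed nearly the whole set higher. In exercise 6 of 7 probe sets were called, all higher, where 7.84% of all tested probe sets were called and 4.49% higher. In high salt the same 6 were called, where 14.3% of all were called and 6.61% higher. The 2 comparisons share the 3 controls of high GAPDH ratio. Pdk4 rose by 4.16 ± 0.53 in exercise (adjusted p = 0.00076) and 3.78 ± 0.53 in high salt (adjusted p = 0.00026), with no overlap. The probe set Z12158cds_at of Pdha1 rose by 2.46 ± 0.38 (adjusted p = 0.0014) and 2.96 ± 0.38 (adjusted p = 0.00017). Its brighter partner rose by 1.16 ± 0.28 (adjusted p = 0.015) and 1.26 ± 0.28 (adjusted p = 0.0057), the only comparisons in which it was called. U10357_at of Pdk2 rose by 1.78 ± 0.33 and 1.53 ± 0.33, Cs by 1.76 ± 0.42 and 1.82 ± 0.42, and Pdk1 by 0.94 ± 0.24 and 0.76 ± 0.24. U10357_g_at of Pdk2 was at 0.27 ± 0.18 (adjusted p = 0.37) and 0.20 ± 0.18 (adjusted p = 0.48). Without control replicate 3 or exercise replicate 3, exercise gave 3 member probe sets called. Without control replicate 3, 209 of all 6555 tested probe sets were called in exercise, against 514 as reported. The medians of the 7 were 1.76 and 1.53, and those of all tested probe sets -0.12 and -0.15.
Once the ratio entered the fit as a covariate, 0 of the 7 were called by limma in either comparison, with 1 and 2 under 0.05 unadjusted. Of all 6555 tested probe sets only 0 in exercise and 15 in high salt were called in that fit. Pdk4 was then at 2.12 ± 0.76 (adjusted p = 0.58) and 1.86 ± 0.73 (adjusted p = 0.44), and the brighter Pdha1 probe set at -0.22 ± 0.32 and -0.040 ± 0.31. Set against the pooled controls of 3 and 15 weeks instead, 1 was called in exercise (Pdk4, 3.14 ± 0.51, adjusted p = 0.0086). In high salt 2 were called (Pdk4, 2.76 ± 0.51, adjusted p = 0.017, and Z12158cds_at, 1.70 ± 0.36, adjusted p = 0.044). That pool held control replicate 1 of 3 weeks and the 3 controls of 15 weeks, whose GAPDH ratios were 1.09, 1.52 and 1.58. The 6-week controls were also apart from both treated groups in smooth muscle markers, with sums of 4549 to 11035 against 2803 to 4409, and in leukocyte markers, with 2743 to 3269 against 4530 to 5380. They lay apart from high salt alone in atrial markers (1440 to 3590 against 10211 to 10600), adipocyte markers (6599 to 11479.5 against 4205 to 5231) and skeletal muscle markers (905 to 1172 against 756 to 876), and from exercise alone in endothelial markers (1564 to 1825 against 1270 to 1517). The sums of ventricular myocyte, fibroblast and red blood cell markers overlapped in both comparisons. As at 15 weeks, Nppa made up most of the atrial sum and Cd74 most of the leukocyte sum. The part of these markers in the changes was not tested.

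**Figure D3:**
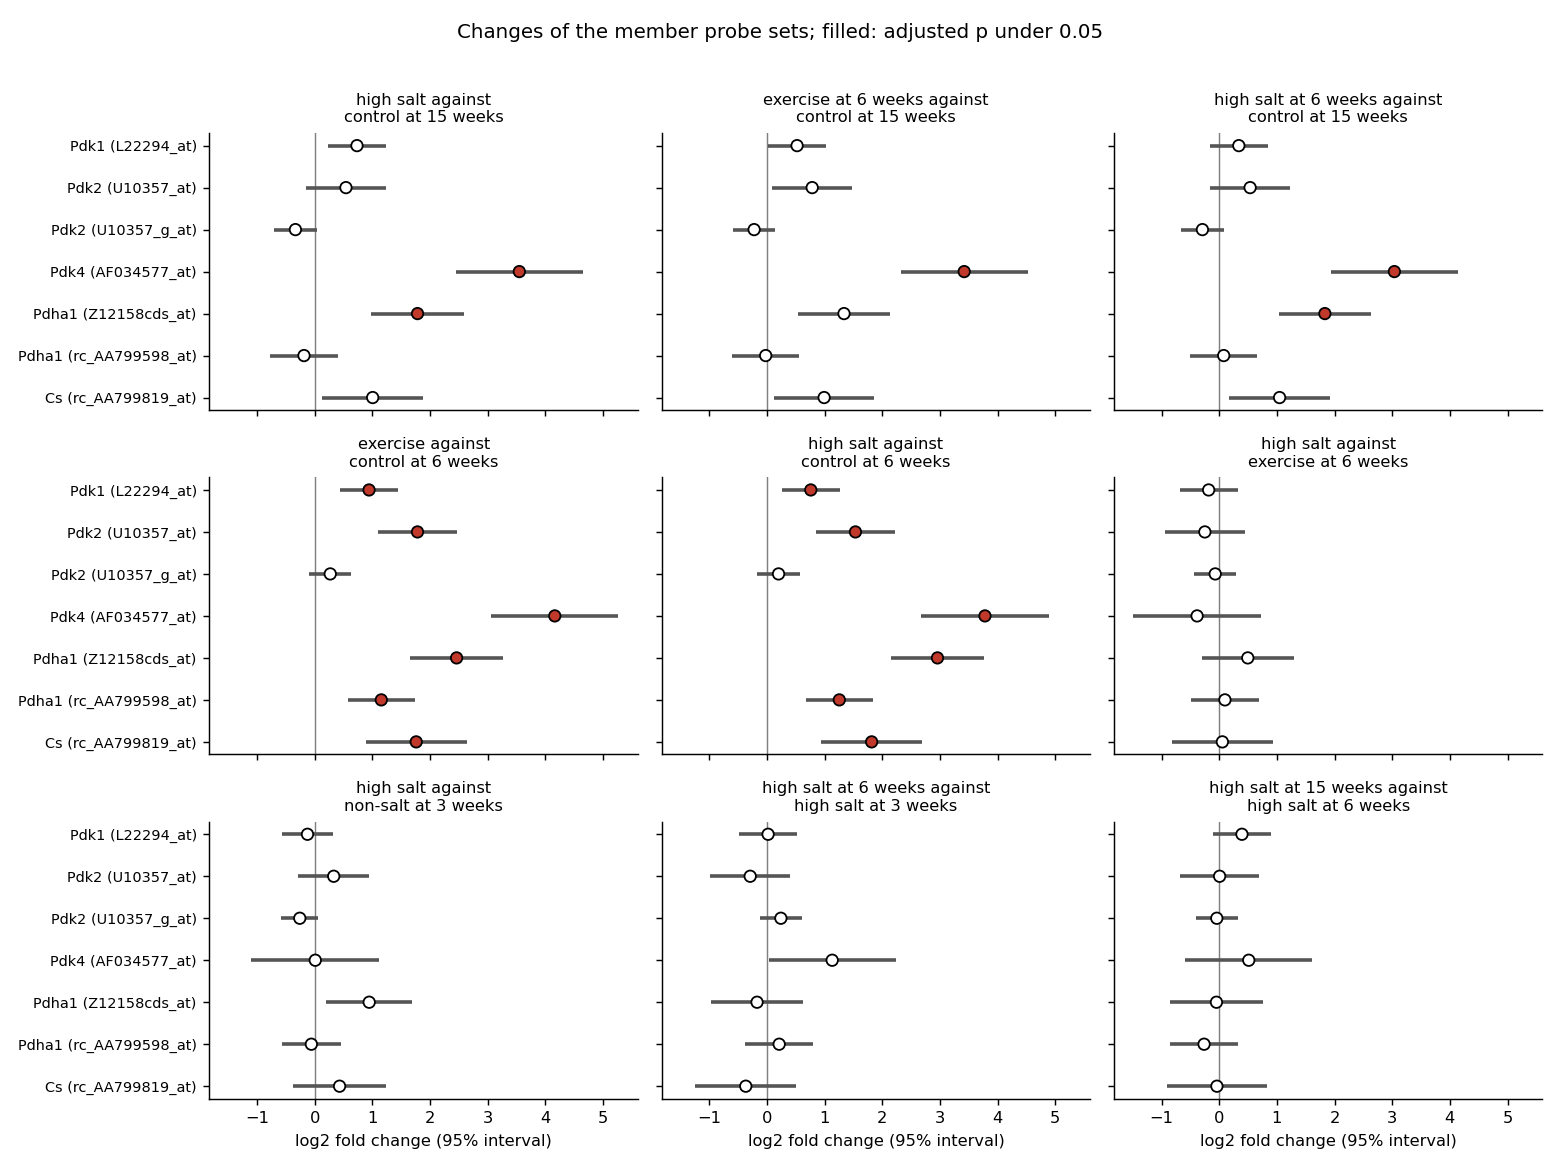
Fitted log2 fold change with 95% interval of each probe set in 9 comparisons, filled where the adjusted p was under 0.05. Pdk4 lies at 3.04 to 4.16 against the controls of 15 or 6 weeks and at -0.38 between the treated groups of 6 weeks, where none is filled.

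High salt was compared with exercise at 6 weeks, pathologic with physiologic load, on arrays whose GAPDH ratios were 0.989 to 1.17. None of the 7 probe sets was called by limma, and none had an unadjusted p under 0.05, where 0.0153% of all were called. Pdk4 differed by -0.38 ± 0.53, with a 95% interval of -1.49 to 0.72 that holds differences of either sign, and by 0.11 without high salt replicate 1. For the other probe sets the estimates ran from -0.25 to 0.50, the latter for Z12158cds_at (interval -0.31 to 1.296). U10357_g_at was the most tightly bounded, at -0.07 (interval -0.44 to 0.30). These intervals do not show that the loads act alike.

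Along the high salt course none of the 7 was called. From 3 to 6 weeks Pdk4 was higher by 1.13 ± 0.53 with no overlap (563.6 and above against 546.8 and below), unadjusted p = 0.045 and adjusted p = 0.9998, the only 1 of the 7 under 0.05 unadjusted, where 0.0763% of all were called. From 6 to 15 weeks it was at 0.51 ± 0.53 (interval -0.59 to 1.61), none of the 7 was under 0.05 unadjusted, and 3.19% of all were called. The other 6 probe sets lay between -0.37 and 0.24 in the first step and between -0.26 and 0.39 in the second.

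High salt against non-salt at 3 weeks gave 0 calls among the 7 by limma, 1 at an unadjusted p under 0.05, where 0.153% of all were called. That 1 was Z12158cds_at of Pdha1, higher by 0.95 ± 0.36 (3 against 4 arrays, no overlap; adjusted p = 0.46). Pdk4 was at 0.01 ± 0.53 (interval -1.10 to 1.12), its non-salt arrays reaching from 275 to 1414, and it took the other sign when any of 4 arrays was left out (down to -0.25 without control replicate 1).
Between the 15-week controls and the non-salt arrays of 3 weeks none was called, where 0.0153% of all were, and 3 were under 0.05 unadjusted. Pdk4 was lower at -1.89 ± 0.53 (adjusted p = 0.31), Z12158cds_at at -1.06 ± 0.36 (adjusted p = 0.42) and Cs at -0.98 ± 0.39 (adjusted p = 0.48). With the single control of ratio 1.09 these were -0.22, 0.16 and 0.29. Without that control, replicate 1, Pdk4 was at -2.73 and called (adjusted p = 0.011), 1 of 3 member probe sets called then. Of all 6555 tested probe sets 50 were called in that fit.

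Between the controls of 15 and 6 weeks none of the 7 was called, 4 were under 0.05 unadjusted and 0.87% of all were called. The brighter Pdha1 probe set came nearest, at 1.18 ± 0.28 without overlap (adjusted p = 0.052), and Pdk4 was at 0.74 ± 0.53, or -0.091 without the 15-week control replicate 1. Without the 6-week control replicate 1, 2 member probe sets were called, and 462 of all 6555 tested. With the 15-week controls above the ratio of 1.4 left out, which leaves 1 of them, Pdk4 was at 2.41 ± 0.54. Whether high salt acted differently at 15 and 6 weeks was tested as the difference between the 2 contrasts. None of the 7 was called, 4 were under 0.05 unadjusted and 1.6% of all were called. Pdk4 was at -0.23 ± 0.75 (interval -1.79 to 1.33; 0.60 without the 15-week control replicate 1) and the brighter Pdha1 probe set at -1.44 ± 0.40 (adjusted p = 0.071). Without the 6-week control replicate 1, 1 member probe set was called, and 298 of all 6555 tested.

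**Figure D4:**
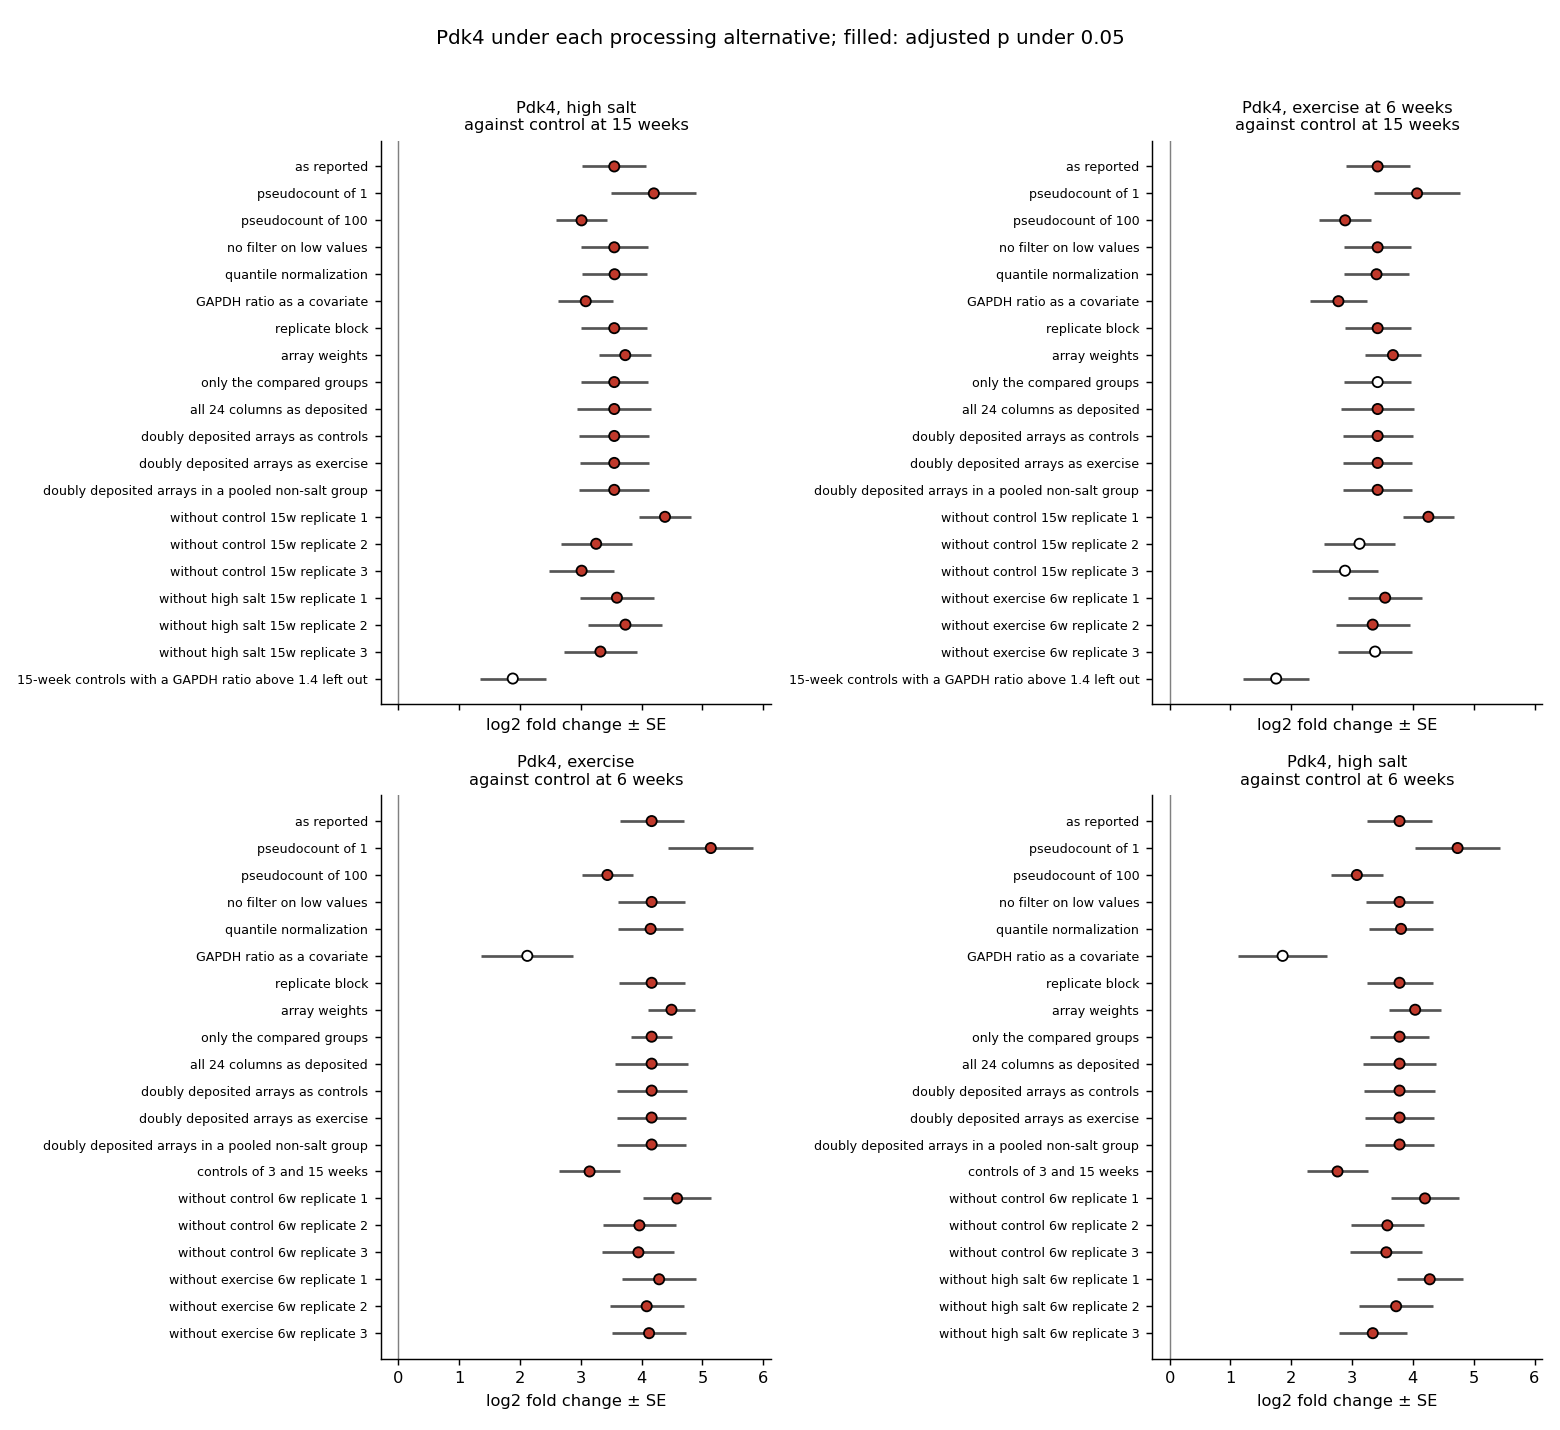
Pdk4 log2 fold change ± SE in 4 comparisons under each processing alternative, filled where the adjusted p was under 0.05. All estimates lie above 0. The lowest are those with the 15-week controls of high GAPDH ratio left out (1.88 and 1.75) and those with the ratio as a covariate at 6 weeks (2.12 and 1.86).

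The rest of the complex and its phosphatases, listed by function, held 8 genes, of which 5 were tested. Of all tested probe sets 7.17% were called at 15 weeks. Against the 6-week controls 7.84% were called in exercise and 14.3% in high salt. The same shares hold for the lists that follow. At 15 weeks the phosphatase gene Pdp1 rose by 1.43 ± 0.42 (adjusted p = 0.041) and Pdp2 fell by 1.47 ± 0.26 on the log2 scale (adjusted p = 0.0014). Pdp1 read 422.7 to 1416 in high salt and 128 to 529.8 in the controls, which overlap, and Pdp2 128 to 177 against 385 to 672, which do not. With the controls above the ratio of 1.4 left out Pdp1 was at 0.52 (adjusted p = 0.82) and Pdp2 at -1.42 (adjusted p = 0.075); with the ratio as a covariate they were at 1.22 (adjusted p = 0.092) and -1.51 (adjusted p = 0.0018). Against the 6-week controls Pdp1 rose in both treated groups (1.75 and 1.48), Pdhb, the E1 beta subunit, rose in exercise (0.93) and Dlat, the E2 core, in high salt (0.60), where Pdp2 fell by 0.95. None of these calls held with the ratio as a covariate, where limma put 0 and 1 of the 5 genes under 0.05 unadjusted. Pdp1 was then at 0.84 and 0.63, Pdhb at 0.37, Dlat at 0.36 and Pdp2 at -1.11 (adjusted p = 0.44 to 0.90). None held against the pooled controls of 3 and 15 weeks either (1 and 2 under 0.05 unadjusted), with Pdp1 at 0.76 and 0.49, Pdhb at 0.51, Dlat at 0.0052 and Pdp2 at -0.73. The list medians were 0.38 at 15 weeks, 0.61 in exercise and 0.60 in high salt at 6 weeks.

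Of 16 genes of pyruvate supply and transport 9 were tested, and 1 of them was called at 15 weeks, where 7.17% of all tested probe sets were. Slc16a1, the carrier of lactate and pyruvate across the cell membrane, rose at 15 weeks by 1.44 ± 0.29 (adjusted p = 0.0039), from 1120.2 to 1481 in controls to 2962 to 4102 in high salt. It stayed called with the ratio as a covariate (1.14, adjusted p = 0.0030) and was at 1.19 (adjusted p = 0.26) with the single intact control. It also rose against the 6-week controls in exercise (1.29) and high salt (1.89), as did Me1, the cytosolic malic enzyme, which makes pyruvate from malate (1.89 and 2.00). Gpt, the alanine transaminase, fell by 0.74 in high salt. With the ratio as a covariate all these 6-week calls were lost (0 and 3 of the 9 genes under 0.05 unadjusted by limma). Slc16a1 was then at -0.0083 and 0.66, Me1 at 0.70 and 0.88 and Gpt at -0.68, with adjusted p from 0.49 to 0.998. Against the pooled controls of 3 and 15 weeks they were lost as well (1 and 4 under 0.05 unadjusted), with Slc16a1 at 0.36 and 0.95, Me1 at 0.68 and 0.80 and Gpt at -0.73 (adjusted p = 0.074). List medians were 0.037 at 15 weeks and 0.12 and 0.31 at 6 weeks.

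Beyond Cs the citric acid cycle list held 20 genes, 10 of them tested. It was not confined to enzymes of the cycle itself, as Idh1 and Acly were on it. The single call at 15 weeks, where 7.17% of all tested probe sets were called, was Idh1, which encodes the cytosolic isocitrate dehydrogenase. It was up by 1.197 ± 0.24 (adjusted p = 0.0036), from 439 to 654 in controls to 855 to 1691.5 in high salt. It was called with the ratio as a covariate (1.11, adjusted p = 0.0081) but not with the controls above 1.4 left out (0.93 ± 0.34, adjusted p = 0.28). Against the 6-week controls Idh3g rose in exercise (0.87), and in high salt Idh2 rose (1.29) and Acly, the citrate cleaving enzyme, fell by 1.10. With the covariate none of these was called, and Idh3g and Idh2 took the other sign, at -0.0013 (adjusted p = 0.999) and -0.10 (adjusted p = 0.96), with Acly at -0.44 (adjusted p = 0.80). By limma 4 of the 10 genes in exercise and 1 in high salt were then under 0.05 unadjusted. Nor was any called against the pooled controls of 3 and 15 weeks (1 and 1 under 0.05 unadjusted), where Idh3g was at 0.34, Idh2 at 0.17 and Acly at -0.45. The list medians were 0.0073 at 15 weeks and 0.35 and 0.31 at 6 weeks, and 8 or 9 of the 10 genes made no call in each.

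PPAR target genes of lipid use, among which Pdk4 is usually counted, numbered 23 with 18 tested, where 7.17% of all tested probe sets were called at 15 weeks. Acot2, a mitochondrial acyl-CoA thioesterase, was the only one called at 15 weeks, up by 1.51 ± 0.45 (adjusted p = 0.048), and it was at 0.32 (adjusted p = 0.92) with the single intact control and 1.06 (adjusted p = 0.088) with the covariate. In the latter fit Acadvl and Hadha, enzymes of beta oxidation, were called lower instead. Its controls read 448 to 1644 and its high salt hearts 1783 to 2484. Against the 6-week controls Acot2 rose by 2.91 in exercise and 2.77 in high salt, the fatty acid carrier Cd36 by 2.29 and 2.51, Hadhb by 1.498 and 1.95 and Acadm, both enzymes of beta oxidation, by 1.57 and 1.598. Ucp3, an uncoupling protein of the inner mitochondrial membrane, rose by 1.24 in exercise. None of these was called with the ratio as a covariate (2 and 1 of the 18 genes under 0.05 unadjusted by limma). Ucp3 was then as high as before but with a wider error, at 1.29 ± 0.45 (adjusted p = 0.56). Acot2 was at 0.96 and 0.93, Cd36 at 0.47 and 0.81, Hadhb at -0.19 and 0.37 and Acadm at -0.75 and -0.58. Against the pooled controls of 3 and 15 weeks none was called (4 and 3 under 0.05 unadjusted), and all kept their sign, Cd36 at 1.18 and 1.41 and Acot2 at 1.21 and 1.07. The list medians were 0.014 at 15 weeks and 0.35 and 0.34 at 6 weeks.
Of 15 nuclear receptors and cofactors known to act on Pdk genes 12 were tested and 1 was called in these 3 comparisons. That was Nr3c1, the glucocorticoid receptor, which fell by 0.81 at 15 weeks (adjusted p = 0.041), where 7.17% of all tested probe sets were called. It was at -0.87 (adjusted p = 0.045) with the covariate and, no longer called, at -0.63 (adjusted p = 0.56) with the controls above 1.4 left out. In the other 9 comparisons none of the 54 listed genes tested was called by limma, with 2 to 18 of them under 0.05 unadjusted.

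The genes most like Pdk4 over the 19 arrays outside the 6-week controls, by Pearson r of log2 values, were Ide (0.88), Cebpb (0.87), Pik3r1 (0.86), Acot2 (0.85) and Nicn1 (0.85). Over all 22 distinct arrays the values were 0.92, 0.86, 0.86, 0.89 and 0.85. For Cs they were Mtch2 (0.93), Ola1 (0.92) and Prdx3 (0.92), and for Pdk1 Atic (0.85), Cirbp (0.85) and Aldoa (0.84). For the bright Pdk2 probe set Lpl led at 0.79, which was 0.46 over all 22 arrays, before Cdc37 (0.78) and Rrad (0.74). The bright Pdha1 probe set was nearest to Higd2a (0.81), Ckmt2 (0.75) and Slc25a11 (0.71), of which Ckmt2 was at 0.0031 over all 22 arrays. These arrays share groups, and the GAPDH ratio varies along with them, so the values order genes and test nothing.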

How the data were processed

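Left ventricle RNA of 24 samples was read on oligonucleotide arrays. The authors deposited one table of intensities on a linear scale, each column with a trimmed mean (2%) of 500.767 to 501.021, which shows a common scaling. The summary software is not given in the sources used here. Intensity values were taken as log2(intensity + 40), control probe sets (59) and those with a mean under the 25th percentile (41.9) were dropped, and 6555 of 8740 were tested with limma 3.58.1 in R 4.3.3 (intensity trend, Benjamini-Hochberg adjustment). The title groups were fitted on 20 arrays (12 residual degrees of freedom) and the comparisons with the pooled non-salt group on 22 (15); 12 comparisons were made. Columns called identical matched in all 8799 values; other pairs shared at most 31. The fit was tested on simulated data. Of all probe sets 7018 had 1 annotated symbol, 308 several and 1473 none; 6994 were matched in RefSeq.

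The members, gene lists and tests were chosen with earlier results of these data known. Named genes were all member probe sets, the 5 (Pdk4) or 3 (others) most correlated genes, and the up to 4 called genes of smallest p per list and comparison, each by its brightest tested probe set (Acadm entered through high salt at 6 weeks, and its exercise value is given beside it). Alternatives were the pseudocount (1 and 100), no low-value filter, quantile normalization, the GAPDH ratio as a covariate, array weights, a replicate block, only the compared groups in the fit, other uses of the doubly deposited arrays, other controls and leaving out each array; 2 of them were added after seeing the data. The number of arrays limits the precision.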

Additional observations from a re-analysis of the deposited data

Results flagged for a closer look

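The values of 2 member probe sets stood apart within the pooled non-salt group of 3 weeks, the only group of 4 arrays. Groups of 3 were not examined this way. Pdk4 read 1414.4 on 1 doubly deposited array, the highest of the 4, with a gap to the next value of 0.853 of the group's range, above Dixon's 95% critical value. The bright probe set of Pdha1, rc_AA799598_at, read 6545.7 on the other doubly deposited array, the lowest of the 4, with a gap of 0.909 of the range. Such a criterion is met by chance in about 1 in 20 groups, and 7 probe sets were examined.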

How the results depend on the processing

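Pdk4 kept its sign in the 5 comparisons in which it was called, under every alternative run. Against the 6-week controls it lost the call when the GAPDH ratio entered as covariate (2.12 in exercise, 1.86 in high salt). All 3 comparisons with the 15-week controls lost it when those of ratio above 1.4 were left out. Pdk4 was then at 1.88 for high salt at 15 weeks and at 1.75 and 1.37 for exercise and high salt of 6 weeks. The last 2 comparisons also lost the call with only the compared groups in the fit (3.42 and 3.04). Leaving out 1 array, Pdk4 ranged from 3.01 to 4.38 for high salt at 15 weeks, 2.88 to 4.25 and 2.50 to 3.87 for exercise and high salt of 6 weeks against the 15-week controls, 3.95 to 4.58 and 3.34 to 4.28 against the 6-week controls, -0.82 to 0.11 between the loads, 0.69 to 1.63 from 3 to 6 weeks of salt, 0.02 to 0.95 from 6 to 15 weeks, -0.25 to 0.48 at 3 weeks, -2.73 to -1.36 for 15-week controls against non-salt, -0.091 to 1.28 between controls and -0.77 to 0.60 for the difference of contrasts. Where it was not called, Pdk4 changed sign with the covariate between controls (-0.66; 2.41 and called without the controls above 1.4), for the difference (1.22) and at 3 weeks (-0.11), where it was -0.0091 with a pseudocount of 100, -0.049 with array weights and -0.20 with all 24 columns. Calls that reversed were those of the bright Pdha1 probe set at 6 weeks, at -0.22 in exercise and -0.040 in high salt with the covariate and -0.020 in exercise against the pooled controls of 3 and 15 weeks. Except where stated in the report, the cause was not tested.

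Member probe sets called, of 7, were 0 in both 6-week comparisons with the covariate and 1 and 2 against the pooled controls. High salt at 15 weeks gave 4 with array weights and 0 without the controls above 1.4. Exercise against 15-week controls gave 0 with only the compared groups or without those controls, and high salt of 6 weeks likewise 0 and 0, and 1 with a pseudocount of 1, no filter, quantile normalization or the covariate. Between controls the count was 1 with a pseudocount of 100, all 24 columns or the doubly deposited arrays as controls, as exercise or pooled, 3 with array weights and 4 without the controls above 1.4; for the difference it was 1 under the last 6 of these settings. Leaving out 1 array the counts were 1 to 4 (high salt, 15 weeks), 0 to 3 and 0 to 3 (6-week loads against 15-week controls), 3 to 6 and 5 to 6 (against 6-week controls), 0 to 2 between controls, 0 to 3 against non-salt and 0 to 1 for the difference, and 0 elsewhere. Of 1392 values of the other members under alternatives 1252 kept direction and side of the threshold, 46 lost a call and 31 gained one. Over all tested probe sets called, array weights gave 1034, 1727 and 1809 at 15 weeks and in exercise and high salt at 6 weeks, the covariate 404, 0 and 15, and only the compared groups 268, 255 and 388, against 470, 514 and 938 as reported. Without the 15-week controls above 1.4 the first was 57, and against the pooled controls of 3 and 15 weeks the others were 3 and 19. Leaving out 1 array they ranged from 218 (control replicate 2) to 546 (control replicate 1), from 209 (control replicate 3) to 855 (control replicate 1) and from 454 (control replicate 3) to 1229 (control replicate 1). In the other 9 comparisons, of at most 209 calls, array weights or another alternative also moved the count by over 1.5 times.

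With the replicate number of the titles as a block, member probe sets called were 1 for high salt of 6 weeks against 15-week controls and did not otherwise change by over 1.5 times. The numbers did not pair the arrays: deviations from the group means correlated with a median of -0.028 between arrays of the same number (45 pairs) and 0.021 between others (90 pairs).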
